A study of Mus musculus with 11 samples.

Results

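The proteasome subunit genes were examined in mouse kidney tubules of the S3 segment, the last stretch of the proximal tubule, which lies in the outer medulla. Members were all genes whose symbol begins with Psma, Psmb, Psmc, Psmd, Psme, Psmf or Psmg followed by digits and which had a probe set annotated with that symbol alone, with 1 probe set a gene, that with the highest mean signal over all arrays. The rule found 49 genes of 22180 genes on the array. They comprised 13 genes of the 20S core, 3 immunoproteasome genes, 17 genes of the 19S cap, 5 genes of other activators and an inhibitor, 7 assembly factors, 2 tissue-restricted core forms (Psma8 of testis and Psmb11 of thymus) and 2 genes, Psmc3ip and Psme3ip1, that match by name without being subunits. Psmc3ip acts in meiotic recombination, and Psme3ip1 encodes a binding partner of Psme3. Psma4, a core alpha subunit, had only probe sets shared with another symbol and was not counted. Members were named by symbol and Entrez number as the platform annotation gives them.

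Total RNA of S3 tubules from mice lacking Tamm-Horsfall protein (THP -/-, 5 arrays) was compared with that of WT mice (6 arrays), all of strain 129/SvEv. Tamm-Horsfall protein is uromodulin, the product of Umod, made chiefly in the thick ascending limb. The labels place 3 THP -/- and 5 WT arrays in batch 1 and 2 THP -/- and 1 WT array in batch 2, and they give neither age nor sex nor the nature of the deletion. Nothing in them ties an array to a mouse of its own, so the p-values describe array-to-array spread, part of which may be technical. Values are log2 signals, so a difference of 1 is a doubling.

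The proteasome is the main protease of the cytosol and nucleus for proteins tagged with ubiquitin. Its barrel-shaped 20S core is built of alpha rings, which gate entry, around beta rings, of which Psmb5, Psmb6 and Psmb7 carry the cutting sites. The 19S cap binds ubiquitin chains, removes them and threads the unfolded protein into the core with a ring of ATPases. Interferon induces Psmb8, Psmb9 and Psmb10, which replace Psmb5, Psmb6 and Psmb7 in newly built cores and change the peptides made for antigen presentation. When proteasome activity falls, the transcription factor NRF1, encoded by Nfe2l1, is known to raise core and cap genes together through antioxidant response elements in their promoters.

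The windows upstream of 4 catalytic genes of both kinds are shown because Nfe2l1 and interferon, the regulators named above, are known to act on these genes, so that the motif matches found can be seen. They hold the 250 bases before the annotated start, 5′ to 3′ on the gene's strand, from RefSeq, build GRCm38.p6. Capitals mark a match to the antioxidant response element core (TGACNNNGC) in Psmb5 and Psmb6, to the gamma-interferon activated sequence (TTCNNNGAA) in Psmb8 and to CCAAT in Psmb9, each searched on both strands.
Psmb5, chr14:54617996-54618245, minus strand: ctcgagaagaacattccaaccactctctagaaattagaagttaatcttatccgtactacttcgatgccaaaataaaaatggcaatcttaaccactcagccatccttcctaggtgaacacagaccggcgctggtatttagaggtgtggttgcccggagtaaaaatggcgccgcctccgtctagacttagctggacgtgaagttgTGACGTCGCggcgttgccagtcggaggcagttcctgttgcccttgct
Psmb6, chr11:70525107-70525356, plus strand: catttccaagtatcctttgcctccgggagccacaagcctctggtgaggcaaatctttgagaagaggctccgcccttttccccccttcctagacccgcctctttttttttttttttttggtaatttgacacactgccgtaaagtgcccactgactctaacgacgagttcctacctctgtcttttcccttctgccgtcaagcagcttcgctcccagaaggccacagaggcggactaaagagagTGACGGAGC
Psmb8, chr17:34197945-34198194, plus strand: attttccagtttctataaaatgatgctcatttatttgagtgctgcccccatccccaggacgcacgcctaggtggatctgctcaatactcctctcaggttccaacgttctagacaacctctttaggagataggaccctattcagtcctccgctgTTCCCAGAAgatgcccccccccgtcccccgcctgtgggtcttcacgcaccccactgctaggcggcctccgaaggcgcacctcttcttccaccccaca
Psmb9, chr17:34187331-34187580, minus strand: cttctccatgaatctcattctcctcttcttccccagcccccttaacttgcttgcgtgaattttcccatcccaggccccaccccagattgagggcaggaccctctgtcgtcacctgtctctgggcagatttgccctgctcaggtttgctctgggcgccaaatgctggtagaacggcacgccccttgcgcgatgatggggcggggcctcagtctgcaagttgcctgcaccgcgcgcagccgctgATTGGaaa
The match in Psmb5 was TGACGTCGC, starting 47 bases before the start site, and that in Psmb6 was TGACGGAGC, starting 9 bases before it. In Psmb8 the match was TTCCCAGAA, starting 97 bases before the start site, and in Psmb9 it was the reverse complement of CCAAT, starting 8 bases before it. The Psmb9 window held neither the antioxidant response element core nor the gamma-interferon activated sequence, so its mark stands for neither Nfe2l1 nor interferon. Each of these 4 windows held 1 match, so none overlapped. They were chosen as those with a match. Psmb10 had none of the motifs in its window, and Psmb7 was not in the promoter table.

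Promoter windows were found for 41 of the 49 members. The antioxidant response element core was present in those of 5 members (Psmb5, Psmb6, Psmc6, Psmd12 and Psmd9), or 12.2%, against 11.5% of all 27025 genes in the promoter table. CCAAT was present in 16 of the 41, or 39.0%, against 37.5% of all genes. The gamma-interferon activated sequence was present in Psmb8 and Psmg1, or 4.88%, against 8.13% of all genes. In these short windows the shares of the members thus lay near or under those of all genes.

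Core and cap genes tended to read higher in THP -/- tubules, but no member passed the test. Of the 49 members 44 had a difference above 0 after adjustment for batch (THP -/- minus WT), against 53.4% of all genes and 59.6% of the genes brighter than the median probe set. The median difference was 0.21 on the log2 scale, against 0.01 over all genes and 0.05 over the brighter genes, and it was 0.14 without THP -/- replicate 3. None of the 49 passed an adjusted p of 0.05 in limma over all 41345 probe sets, where the share called was 0%, and the members' adjusted p ran from 0.766 to 0.989. At an unadjusted p under 0.05, 2 members were called (Psmb2 and Psmd6), both higher. Among all genes 5.64% were called in either direction and 3.64% as higher, and among the brighter genes 4.92% as higher, so the members' count of calls was near the background. In none of the 49 did the groups separate fully, which 0.433% of all genes did upwards and 0.194% downwards. The members vary together across arrays, so their number does not make their shared direction more certain.

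**Figure D1:**
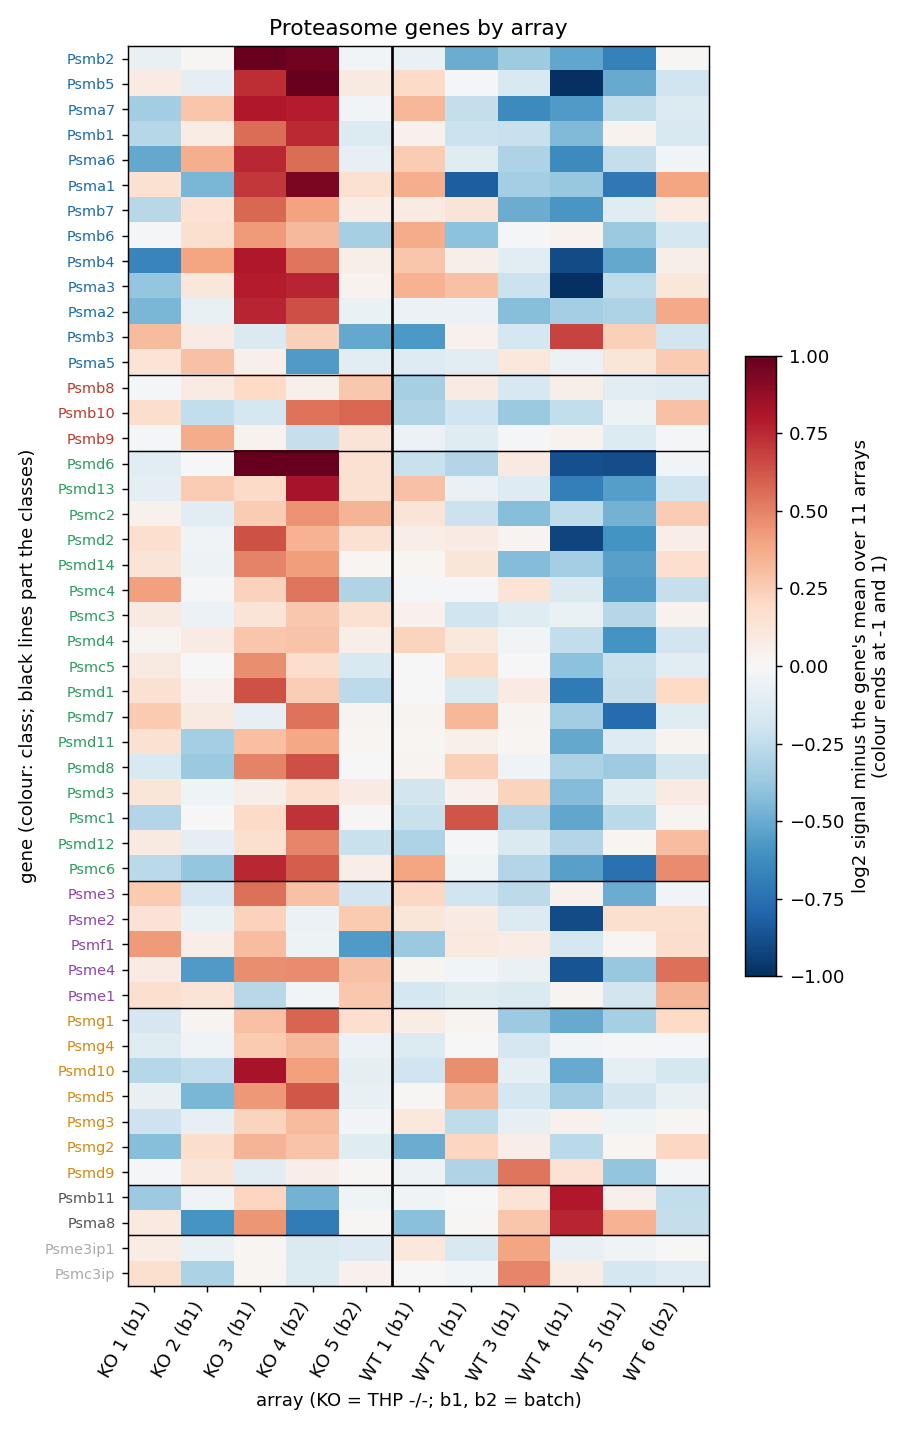
Log2 signal of each of the 49 genes (rows, grouped by class) in each array (columns, 5 THP -/- then 6 WT), as the difference from the gene's mean over the 11 arrays, with red above and blue below. THP -/- replicates 3 and 4 are red and WT replicates 4 and 5 blue over most core and cap rows, while the immunoproteasome and tissue-restricted rows lack that pattern.

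The highest and lowest signals lay mostly in the same few arrays. Among the 30 core and cap genes, 13 had their highest signal in THP -/- replicate 3 and 14 in THP -/- replicate 4, whereas these arrays were the highest for 9.74% and 13.4% of all genes (12.8% and 19.6% of the brighter genes). The lowest signal of 13 of the 30 was in WT replicate 4 and of 9 in WT replicate 5, against 14.8% and 8.68% of all genes (21.2% and 9.97% of the brighter genes). The mean over the 30 genes was 6.24, 6.30, 6.77, 6.81 and 6.27 in THP -/- replicates 1 to 5. In WT it ran from 5.82 to 6.35, so THP -/- replicates 1, 2 and 5 lay inside the WT range and replicates 3 and 4 above it. The mean over all genes brighter than the median probe set had the same arrays at its ends, over a narrower span. It was highest in THP -/- replicates 4 (5.39) and 3 (5.34) and lowest in WT replicates 4 (5.15) and 5 (5.22). Array medians were 3.85, 3.89, 3.99 and 4.01 in these arrays, in that order. The part of this shared pattern in the core and cap values was not tested.

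Without THP -/- replicates 3 and 4, a setting chosen after seeing the values, 34 of the 49 members and 25 of the 30 core and cap genes were still above 0, against 54.5% of all genes in the same setting. The core and cap median was then 0.10, against 0.29 with all arrays. Without WT replicates 4 and 5, also chosen after seeing the values, it was 0.18, with 28 of the 30 above 0, against 54.2% of all genes.

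Genes of the 20S core had the highest median of the 5 main classes, though not without THP -/- replicates 3 and 4, where the immunoproteasome (0.21) and cap (0.14) medians lay above the core's (0.09). Of the 13 measured, 12 were above 0, with a median of 0.37 and a range from -0.03 to 0.72. The alpha rings had 5 of 6 above 0 (median 0.39) and the beta rings 7 of 7 (median 0.32). Class means per array were 6.09, 6.37, 6.89, 6.84 and 6.2 in THP -/- replicates 1 to 5, against 5.76 to 6.38 in WT arrays. The core median was 0.18 without THP -/- replicate 3 and 0.09 without THP -/- replicates 3 and 4.

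**Figure D2:**
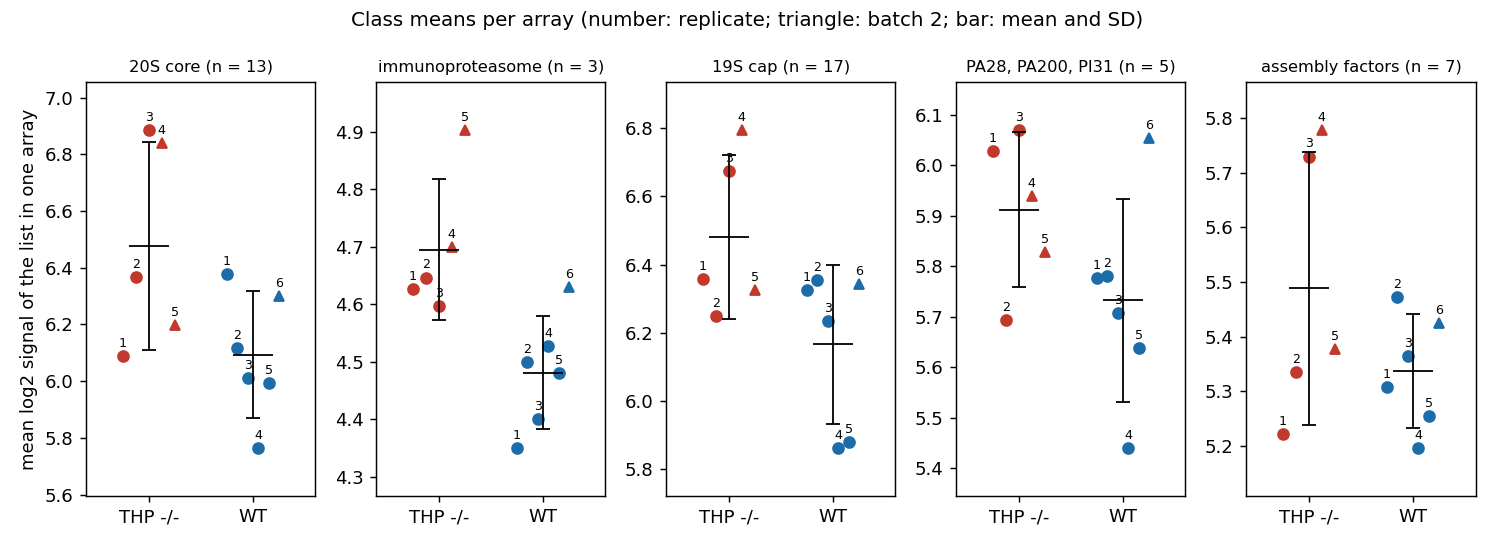
Mean log2 signal of each class in each array, with THP -/- (red) left of WT (blue), the replicate number above each point, triangles for batch 2 and bars for the mean and SD over arrays; the vertical axes differ between panels. In the core panel THP -/- replicates 3 and 4 (6.89 and 6.84) stand above all other arrays, and in the immunoproteasome panel THP -/- replicate 5 (4.90) is the highest.

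Psmb2 (Entrez 26445), a non-catalytic beta subunit, had the smallest unadjusted p of all members. It read 5.73, 5.82, 7.03, 6.77 and 5.78 in THP -/- replicates 1 to 5, against a lowest value of 5.13, a median of 5.38 and a highest of 5.82 in WT arrays. Only THP -/- replicates 3 and 4 exceeded the WT range. The means were 6.23 ± 0.623 in THP -/- (SD, n = 5) and 5.46 ± 0.271 in WT (SD, n = 6). The difference was 0.72 ± 0.27 (SE), or 1.64-fold, with a 95% interval from 0.12 to 1.31 and a limma p of 0.0224, adjusted p = 0.766 over all probe sets. It was 0.41 without THP -/- replicate 3 and 0.28 without THP -/- replicates 3 and 4.

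Psmb5 (Entrez 19173), the chymotrypsin-like subunit and the target of the drug bortezomib, read 8.46, 8.28, 9.12, 9.48 and 8.47 in THP -/- replicates 1 to 5, against 7.14, 8.21 and 8.57 as lowest, median and highest in WT arrays. THP -/- replicates 3 and 4 lay above all WT arrays, and WT replicate 4 held the lowest value. The difference was 0.64 ± 0.29 (SE), with a 95% interval from -0.01 to 1.28 and limma adjusted p = 0.813. It was 0.48 without THP -/- replicate 3, 0.32 without THP -/- replicates 3 and 4, and 0.40 without WT replicates 4 and 5.

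Psma7 (Entrez 26444), an alpha subunit, read 6.49, 7.11, 7.64, 7.62 and 6.81 in THP -/- replicates 1 to 5, against 6.2, 6.595 and 7.17 as lowest, median and highest in WT arrays. The groups overlapped over most of their range, and the difference was 0.51 ± 0.25 (SE) with limma adjusted p = 0.823. It was 0.32 without THP -/- replicate 3 and 0.20 without THP -/- replicates 3 and 4.

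Psmb6, the caspase-like subunit, read 5.76, 5.93, 6.2, 6.10 and 5.44 in THP -/- replicates 1 to 5, against 5.36, 5.68 and 6.14 as lowest, median and highest in WT arrays. Psmb7, the trypsin-like subunit, read 6.80, 7.22, 7.65, 7.48 and 7.15 in THP -/- replicates 1 to 5, against 6.50, 7.06 and 7.21 as lowest, median and highest in WT arrays. Their differences were 0.24 ± 0.18 and 0.30 ± 0.20 (SE), below that of Psmb5, but the differences between these genes were not tested. Without THP -/- replicates 3 and 4, Psmb6 gave 0.07 and Psmb7 0.09, against 0.32 for Psmb5.

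The other core subunits gave differences of 0.42 (Psma1), 0.41 (Psma3), 0.37 (Psma6 and Psmb4), 0.32 (Psmb1) and 0.21 (Psma2). Without THP -/- replicate 3 they were 0.20 (Psma1), 0.19 (Psma3), 0.18 (Psma6), 0.15 (Psmb4), 0.18 (Psmb1) and -0.05 (Psma2). Psma6, Psmb4 and Psma2 were 0.61, 0.65 and 0.37 without THP -/- replicate 1, Psma3 was 0.17 without WT replicate 4, and Psma2 was 0.31 without WT replicate 6. Leaving out THP -/- replicate 3 moved 11 of the 13 core and 10 of the 17 cap differences by over 1.5 times. Psmb3 and Psma5 stood apart, at 0.04 ± 0.23 and -0.03 ± 0.16 (SE). Psma5 averaged 3.85 in THP -/- and 3.92 in WT, near the median probe set of the arrays, a level at which signal cannot be told from background here. A second, dimmer probe set of Psma5 gave -0.13.

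The immunoproteasome genes had small differences and were not highest in the same arrays as the core. Their mean was 4.63, 4.65, 4.60, 4.70 and 4.90 in THP -/- replicates 1 to 5, against 4.35, 4.50, 4.40, 4.53, 4.48 and 4.63 in WT replicates 1 to 6. All WT arrays but replicate 6 lay below every THP -/- array. The group means were 4.69 ± 0.123 in THP -/- (SD, n = 5) and 4.48 ± 0.0984 in WT (SD, n = 6). Psmb8, the inducible counterpart of Psmb5, read 4.93, 5.03, 5.15, 5.0 and 5.22 in THP -/- replicates 1 to 5, against 4.62, 4.83 and 5.03 as lowest, median and highest in WT arrays. All THP -/- values lay above the WT median, and the highest WT value equalled that of THP -/- replicate 2. The groups overlapped, with WT replicates 2 (5.03) and 4 (5.01) above THP -/- replicates 1 and 4. The difference was 0.21 ± 0.11 (SE), or 1.15-fold, with a 95% interval from -0.04 to 0.46 and limma adjusted p = 0.826.

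Psmb10, the counterpart of Psmb7, read 5.11, 4.69, 4.76, 5.48 and 5.51 in THP -/- replicates 1 to 5, against 4.57, 4.72 and 5.23 as lowest, median and highest in WT arrays. The highest array of each group belonged to batch 2, and the batch-adjusted difference was 0.18 ± 0.11 (SE). Psmb9, the counterpart of Psmb6, read 3.84, 4.22, 3.88, 3.62 and 3.98 in THP -/- replicates 1 to 5, against 3.71, 3.82 and 3.88 as lowest, median and highest in WT arrays. These values too lie at the level of the median probe set, and the difference was 0.13 ± 0.12 (SE).

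The 95% intervals of all 3 immunoproteasome genes ended below 0.47 on the log2 scale (0.46, 0.43 and 0.39 for Psmb8, Psmb10 and Psmb9). Their median of 0.18 was 0.21 without THP -/- replicates 3 and 4. In no immunoproteasome gene was THP -/- replicate 3 or 4 the highest array, which it was in 11 of 13 core genes and 16 of 17 cap genes. The share was 22.3% over all genes and 31.2% over the brighter genes, so with 3 genes their absence is near the background. THP -/- replicate 3 was next to the highest array in Psmb8 (5.15) and replicate 4 in Psmb10 (5.48), both above all WT arrays. In Psmb9 THP -/- replicate 4 was the lowest array (3.62). The contrast between the classes is a description.

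Genes of the interferon and peptide presentation list, which shares its control with the immunoproteasome, gave a median of 0.04, with 6 of 9 measured genes above 0 and 0 at an unadjusted p under 0.05. Those with the smallest p were B2m, the light chain of MHC class I, at 0.21 ± 0.15 (SE), the interferon-induced GTPase Irgm1 at -0.21 ± 0.18 and the peptide-trimming enzyme Erap1 at 0.17 ± 0.19. Immune cell markers, which would carry immunoproteasome RNA of another source, had 6 of 12 measured genes above 0. Their mean signal ran from 4.43 to 4.71 in THP -/- arrays, against 4.42 to 4.81 in WT arrays. The T cell marker Cd3e gave -0.34 ± 0.16 (SE), the MHC class II gene H2-Ab1 -0.69 ± 0.33 and the macrophage marker Cd68 0.20 ± 0.11.

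All 17 cap genes were above 0, with a median of 0.27 and a range from 0.10 to 0.73. The 6 ATPases had a median of 0.21, the 8 lid genes 0.24 and the 3 other base genes 0.30. Class means were 6.36, 6.25, 6.68, 6.80 and 6.33 in THP -/- replicates 1 to 5, against 5.86 to 6.36 in WT arrays, so WT reached the level of THP -/- replicates 1, 2 and 5. The cap median was 0.15 without THP -/- replicate 3 and 0.14 without THP -/- replicates 3 and 4. WT replicate 4 or 5 was the lowest array in 15 of the 17, against 22.3% of all genes and 29.7% of the brighter genes. Leaving out both moved 12 of the 17 cap differences by over 1.5 times.

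Psmd6 (Entrez 66413), a lid subunit, read 5.17, 5.28, 6.31, 6.43 and 5.43 in THP -/- replicates 1 to 5, against 4.39, 5.03 and 5.37 as lowest, median and highest in WT arrays. THP -/- replicates 3, 4 and 5 exceeded the WT range, the last by little. The means were 5.72 ± 0.598 in THP -/- (SD, n = 5) and 4.91 ± 0.421 in WT (SD, n = 6). The difference was 0.73 ± 0.28 (SE), or 1.66-fold, with a 95% interval from 0.10 to 1.35 and a limma p of 0.0266, adjusted p = 0.769. It was 0.48 without THP -/- replicate 3 and 0.33 without THP -/- replicates 3 and 4.

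Psmd13, another lid subunit, read 5.20, 5.54, 5.48, 6.11 and 5.44 in THP -/- replicates 1 to 5, against 4.60, 5.13 and 5.58 as lowest, median and highest in WT arrays. Only THP -/- replicate 4 exceeded the WT range, and the difference was 0.44 ± 0.20 (SE) with limma adjusted p = 0.820. Psmc2, an ATPase of the base, read 7.12, 6.97, 7.33, 7.52 and 7.41 in THP -/- replicates 1 to 5, against 6.6, 6.84 and 7.33 as lowest, median and highest in WT arrays. The difference was 0.27 ± 0.13 (SE), and a second, dim probe set of Psmc2 gave -0.03.

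Among the other cap genes, the base scaffold Psmd2 gave 0.43, the ATPase Psmc4 0.33, the deubiquitinase Psmd14 0.33 and the ubiquitin receptor Psmd4 0.27. The remaining ATPases gave 0.24 (Psmc5), 0.18 (Psmc3), 0.17 (Psmc6) and 0.16 (Psmc1). The base scaffold Psmd1 gave 0.30, and the lid subunits Psmd7, Psmd8, Psmd11, Psmd3 and Psmd12 gave 0.28, 0.19, 0.15, 0.12 and 0.10. None had an interval that excluded 0. Without WT replicates 4 and 5, Psmd2 was 0.19, Psmd14 0.22, Psmd4 0.13, Psmd1 0.14 and Psmd7 0.10.

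**Figure D3:**
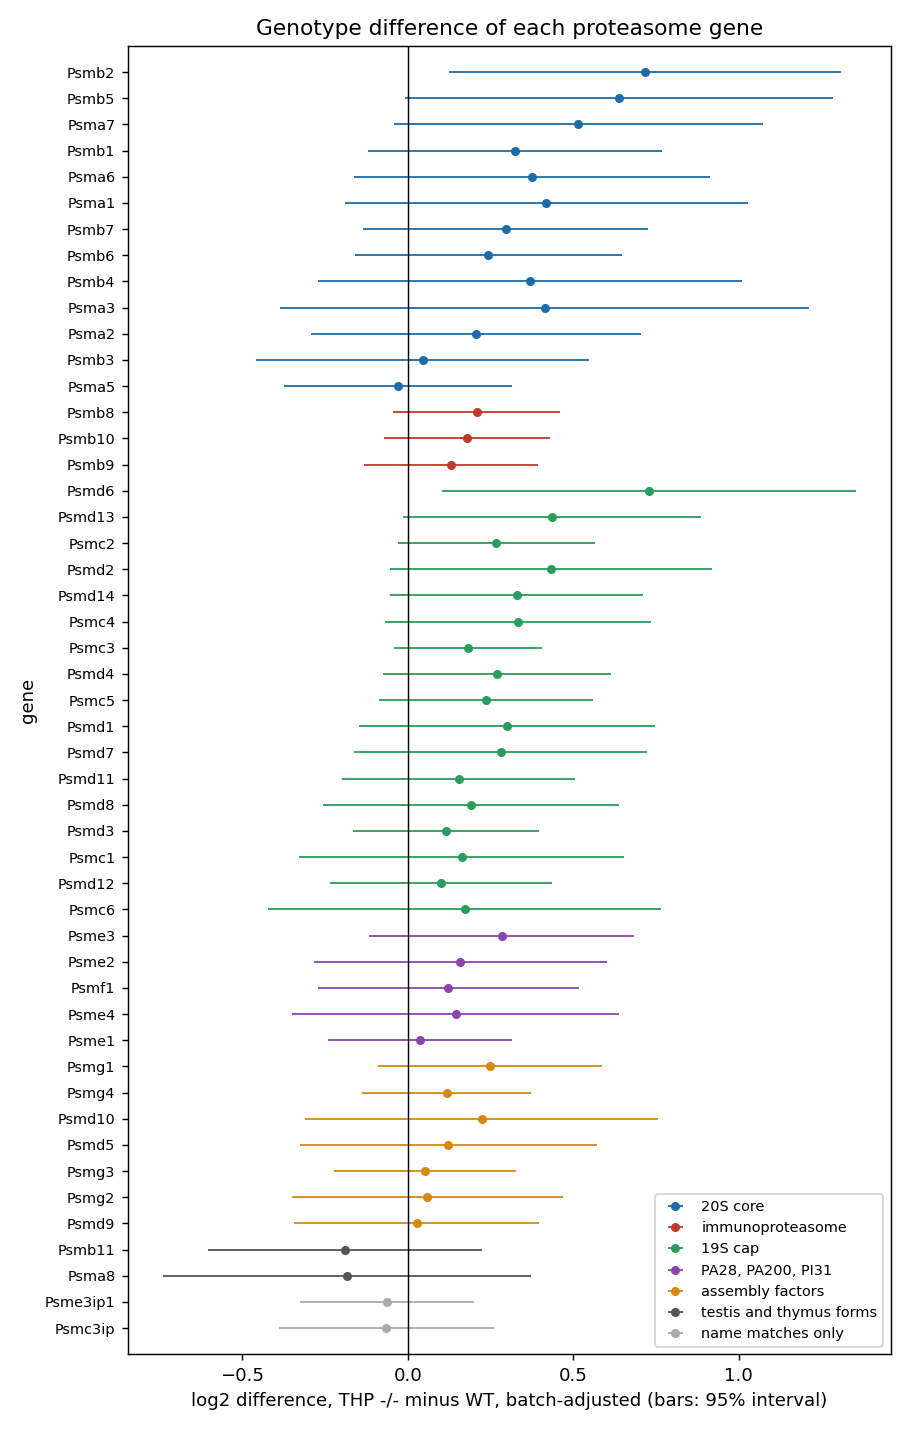
Batch-adjusted log2 difference (THP -/- minus WT, horizontal axis) of each of the 49 genes with its 95% interval from limma, coloured by class and ordered by p within the class. The intervals of Psmb2 and Psmd6 lie above 0, those of the other 47 genes include 0, and Psmb11, Psma8, Psme3ip1, Psmc3ip and Psma5 have points below 0.

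The regulators are activators that bind the core ends in place of the cap (Psme genes) and an inhibitor (Psmf1). They had a median of 0.14, with all 5 above 0. Psme3, the nuclear PA28 gamma, read 5.11, 4.68, 5.40, 5.14 and 4.66 in THP -/- replicates 1 to 5, against 4.35, 4.74 and 5.06 as lowest, median and highest in WT arrays, a difference of 0.28 ± 0.18 (SE). Psme2, the interferon-inducible PA28 beta, read 7.03, 6.82, 7.12, 6.83 and 7.15 in THP -/- replicates 1 to 5, against 5.99, 6.99 and 7.05 as lowest, median and highest in WT arrays. WT replicates 3 (6.75) and 4 (5.99) lay below every THP -/- array, and THP -/- replicates 3 and 5 above every WT array. The other arrays overlapped, and the difference was 0.16 ± 0.20. Psme2 has a close relative, Psme2b, so its probe signal is less certain.

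Psme1, the partner of Psme2 in the PA28 ring, gave 0.04 ± 0.13 (SE), the PA200 gene Psme4 0.14 ± 0.22 and Psmf1, which encodes the proteasome-binding protein PI31, 0.12 ± 0.18. The regulators were the class in which the batches differed most, with a median of 0.26 in batch 1 and -0.17 in batch 2, where 1 of the 5 was above 0. Their median was 0.06 without WT replicate 4, 0.09 without THP -/- replicate 1, 0.10 without THP -/- replicate 3 and 0.26 without WT replicate 6.

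The assembly factors, chaperones that build the core (Psmg genes) or the cap base (Psmd5, Psmd9 and Psmd10) and leave the finished particle, had a median of 0.12, with all 7 above 0. Psmg1 read 5.24, 5.43, 5.70, 5.99 and 5.57 in THP -/- replicates 1 to 5, against 4.90, 5.25 and 5.60 as lowest, median and highest in WT arrays, a difference of 0.25 ± 0.15 (SE). Psmg4 read 4.96, 5.04, 5.34, 5.40 and 5.02 in THP -/- replicates 1 to 5, against 4.91, 5.06 and 5.08 as lowest, median and highest in WT arrays, a difference of 0.12 ± 0.12. In both genes THP -/- replicates 3 and 4 were the arrays above the WT range.

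Psmd10, also called gankyrin, read 4.91, 4.95, 6.02, 5.61 and 5.10 in THP -/- replicates 1 to 5, against 4.69, 5.06 and 5.66 as lowest, median and highest in WT arrays, a difference of 0.22 ± 0.24 (SE). Psmd5, Psmg2, Psmg3 and Psmd9 gave 0.12, 0.06, 0.05 and 0.03. The median of the class was -0.02 without THP -/- replicate 3 and to -0.08 without THP -/- replicates 3 and 4, and 0.03 without THP -/- replicate 4.

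The 2 tissue-restricted core forms and the 2 genes that only match by name read slightly lower in THP -/- arrays. Psmb11 gave -0.19 ± 0.19 (SE) and Psma8 -0.18 ± 0.25, both highest in WT replicate 4, the array in which many core and cap genes were lowest. Psma8 averaged 3.50 in THP -/- and 3.77 in WT, under the median probe set. Psme3ip1 and Psmc3ip gave -0.06 and -0.07.

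Within batches, 45 of the 49 members were above 0 in batch 1, against 54.5% of all genes, and 35 in batch 2, against 50.4%. The sign was the same in both for 37, against 54.3% of all genes. Members above 0 in both numbered 34, against 30.0% of all genes, and 25 of the 30 core and cap genes were among them. The core median was 0.41 in batch 1 and 0.24 in batch 2, and the cap median was 0.27 and 0.18. Each batch holds one of the 2 high THP -/- arrays (replicate 3 in batch 1, replicate 4 in batch 2), and batch 2 has a single WT array, so the batches are a thin check of each other.

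**Figure D4:**
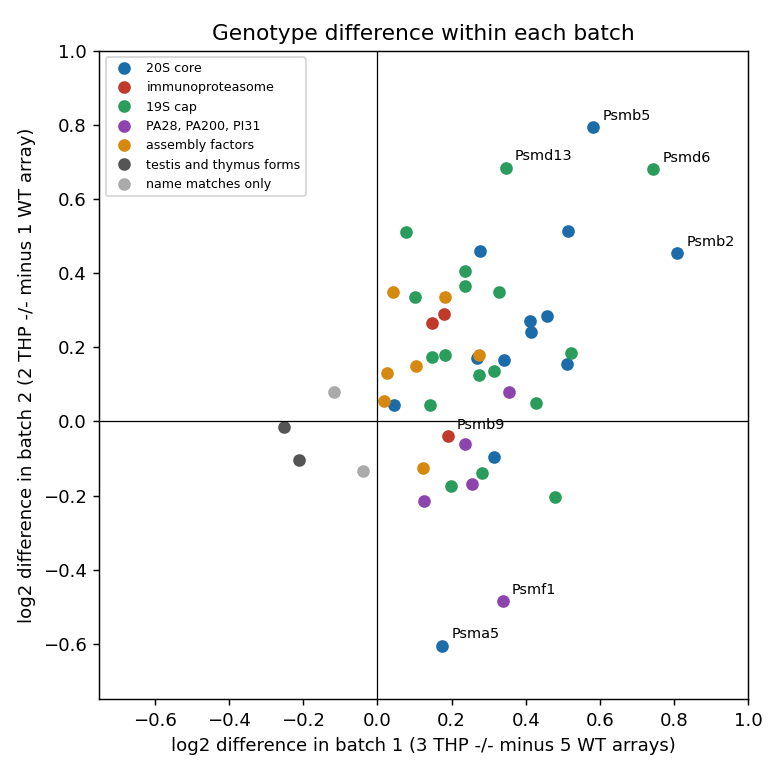
Log2 difference (THP -/- minus WT) of each member in batch 1 (horizontal axis) and batch 2 (vertical axis), coloured by class. Most core and cap genes lie in the upper right quadrant, and Psma5 (0.17 and -0.61) and Psmf1 (0.34 and -0.49) lie farthest below 0 in batch 2.

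Proteins that work with the proteasome but carry other names were read from fixed lists. Of 10 measured partners 9 were above 0 (median 0.15) and 0 had an unadjusted p under 0.05. The adaptor Ecpas gave 0.28 ± 0.16 (SE), the cap-associated thioredoxin Txnl1 0.39 ± 0.30 and the small lid subunit Sem1 0.52 ± 0.48. Pomp, the maturation factor of the core, read 6.61, 5.27, 7.33, 7.63 and 7.18 in THP -/- replicates 1 to 5, against 5.68, 6.35 and 7.04 as lowest, median and highest in WT arrays, a difference of 0.23 ± 0.36. THP -/- replicates 3, 4 and 5 lay above all WT arrays and replicate 2 below them.

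In the NRF1 pathway list 8 of 9 measured genes were above 0, with a median of 0.26. Nfe2l1 itself read 6.13, 6.16, 6.46, 6.66 and 5.96 in THP -/- replicates 1 to 5, against 5.66, 5.91 and 6.16 as lowest, median and highest in WT arrays. THP -/- replicates 3 and 4 were again the highest, and the difference was 0.39 ± 0.16 (SE), or 1.31-fold, with an unadjusted limma p of 0.0322 and adjusted p = 0.774. It was 0.22 without THP -/- replicates 3 and 4.

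Ngly1, the glycanase that processes NRF1, gave 0.54 ± 0.21 (SE, unadjusted limma p of 0.0252, adjusted p = 0.769), and Syvn1, a ubiquitin ligase of the endoplasmic reticulum, gave 0.26 ± 0.11 (unadjusted limma p of 0.0441, adjusted p = 0.799). With Nfe2l1 they were 3 of 9 genes higher at an unadjusted p under 0.05, against 3.64% of all genes and 4.92% of the brighter genes, and 0 of 9 passed over all probe sets. Without THP -/- replicate 3, Ngly1 was 0.37 and Nfe2l1 0.33, with unadjusted limma p of 0.0988 and 0.0912. Ngly1 was 0.27 without THP -/- replicates 3 and 4. With single arrays left out, Syvn1 ran from 0.21 to 0.30. In the list of ubiquitin and its delivery 7 of 9 genes were above 0 (median 0.17). The shuttle protein Ubqln1 gave 0.50 ± 0.21 (SE, unadjusted limma p of 0.0322, adjusted p = 0.774), and 0.29 to 0.62 with single arrays left out. The chaperone Bag6 gave 0.33 ± 0.18. Ddi1 gave -0.25 ± 0.11 (unadjusted limma p of 0.0429, adjusted p = 0.797), between dim signals of 2.35 in THP -/- and 2.62 in WT, well under the median probe set.

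The mean of 7 S3 markers was 8.43, 8.76, 9.28, 8.93 and 8.08 in THP -/- replicates 1 to 5, against 7.58 to 8.65 in WT arrays. As for core and cap genes it was highest in THP -/- replicates 3 and 4 and lowest in WT replicate 4. Unlike them, THP -/- replicate 5 was the second lowest array, and WT replicate 5, low for core and cap genes, was among the highest WT arrays at 8.56. All 7 S3 markers were above 0 (median 0.43) and all 7 S1 and S2 markers below 0 (median -0.44), among them Slc22a8, an organic anion transporter, at -1.78 ± 0.44 (SE, limma adjusted p = 0.586). The mean of the S1 and S2 markers ran from 5.01 to 6.52 in THP -/- arrays, against 5.50 to 6.81 in WT arrays.

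Thick ascending limb markers had a mean of 5.39, 5.22, 5.71, 7.16 and 5.29 in THP -/- replicates 1 to 5, against 4.87 to 5.61 in WT arrays, with 6 of 6 genes above 0 (median 0.46). THP -/- replicate 4 stood far above the others, also in the collecting duct and endothelial list (6.16, against at most 5.23 in any other array). The part of the mix of captured segments in the proteasome values was not tested. In bulk RNA, a different share of cells and a different level per cell cannot be told apart.

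**Figure D5:**
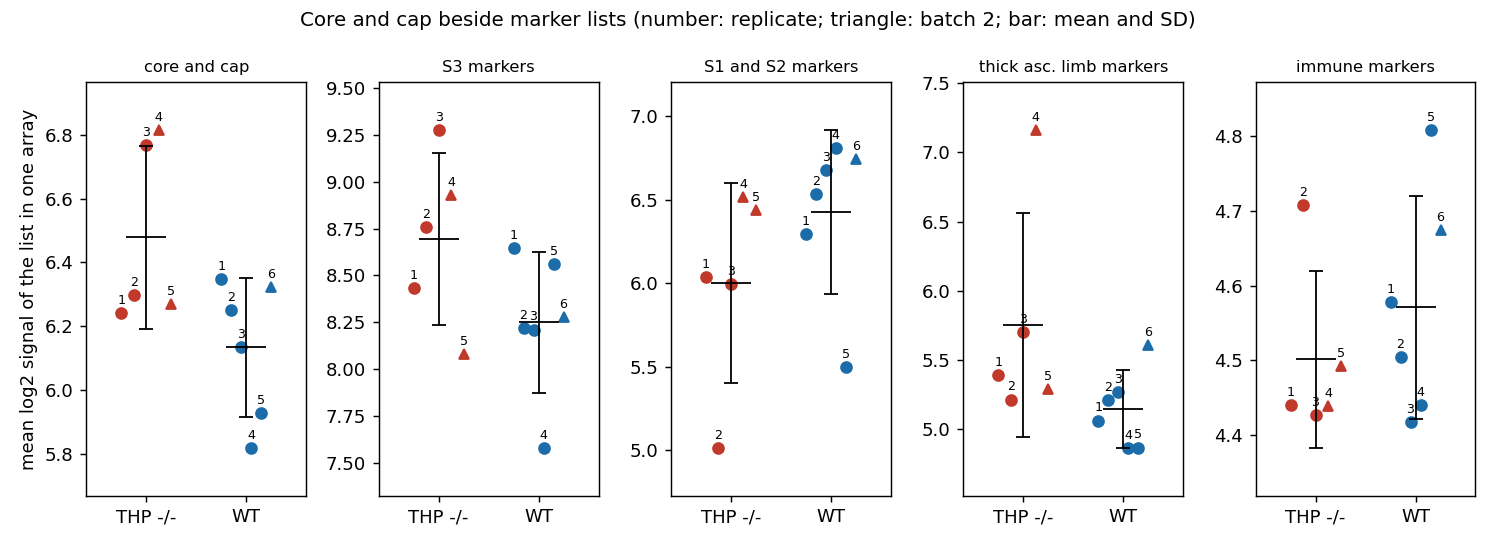
Mean log2 signal of the 30 core and cap genes beside 4 marker lists in each array, with THP -/- (red) left of WT (blue), the replicate number above each point, triangles for batch 2 and bars for the mean and SD; the vertical axes differ between panels. THP -/- replicates 3 and 4 are the highest arrays for core and cap genes and for S3 markers, and THP -/- replicate 4 alone (7.16) is high for thick ascending limb markers.

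Array medians lay between 3.85 and 4.01, correlations between arrays over all probe sets ran from 0.901 to 0.955; identical arrays were not found. Umod, the targeted gene, averaged 4.49 ± 0.582 in THP -/- (SD, n = 5) and 5.80 ± 0.579 in WT (SD, n = 6), with THP -/- replicate 5 equal to the lowest WT value of 5.27. Whether its probe set lies in the deleted part is not stated in the labels.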

How the data were processed

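Total RNA of kidney S3 tubules was isolated with a PicoPure kit and labelled for the arrays with a WT Pico kit, both per the labels' protocols. The deposited table holds log2 signals of 41345 probe sets on 11 arrays; per the submitters' processing notes the authors used Partek 6.6 and RMA, which brings arrays to a like distribution and can shrink a shift shared by most genes. Whether the values were batch-corrected or filtered first is not stated. Of the probe sets 23521 carried 1 gene symbol, 1814 several and 16010 none.

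Every probe set was fitted with limma 3.58.1 in R 4.3.3 (genotype and batch as terms, 8 residual degrees of freedom, two-sided, Benjamini-Hochberg over all probe sets, threshold 0.05), a procedure tested on simulated data. Tables were made with Python 3.11.15 and pandas 2.3.3 and drawn with matplotlib 3.10.9. Class medians have no test. The smallest adjusted p of any probe set was 0.0813. No detection values were used, and precision is limited by how many arrays there are. Replicate numbers did not pair the arrays. Alternatives treated batch as a random block, left it out or used batch 1 only, added the replicate number as a block, averaged a gene's probe sets, dropped dim probe sets, left out each array in turn, or changed the scaling (quantile, or centring on medians), the weights of arrays or the prior on variances.

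The members and lists were chosen with earlier results of these data known. Values of each THP -/- array, with the lowest, median and highest WT value, are given for the immunoproteasome genes, their constitutive counterparts and the members with the smallest p in each class (3 in core, cap and assembly, 2 among the regulators), and for Nfe2l1 and Pomp. Genes outside the family are up to 3 of each list with the smallest p. No other gene was named after its values were seen, except those outlying in an array and those whose sign turned.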

Additional observations from a re-analysis of the deposited data

Results flagged for a closer look

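In 10 of 168 sets of values examined (each named gene and class mean, per genotype), the highest or lowest array lay apart from the others by more than Dixon's 95% limit, which chance passes in about 1 in 20. Among WT arrays replicate 4 was the low array for Psma3 (4.56, next lowest 5.91), Psmd11 (6.52, next 6.90), Psme2 (5.99, next 6.75) and the partner gene Txnl1 (6.77, next 7.66), and the high array for Psmb11 (5.31, next highest 4.64). WT replicate 3 was the high array for Psmc3ip (4.60, next 4.18) and the low one for the endothelial marker Pecam1 (4.65, next 5.04). WT replicate 5 was the low array for Slc4a4, a bicarbonate carrier of S1 and S2 (7.44, next 8.51). In THP -/- arrays replicate 1 was the high array for Bag6 (7.29, next 6.93), and replicate 4 for Slc12a1, the salt carrier of the thick ascending limb (10.05, next 7.35).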

How the results depend on the processing

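Without a batch term 8 members reached an unadjusted p under 0.05 in limma, with batch as a random block 8, with the mean of all probe sets of a gene 5, with the replicate block 0, without THP -/- replicates 3 and 4 0, and without WT replicates 4 and 5 0; leaving out each array in turn gave 0 (THP -/- replicate 3) to 7 (THP -/- replicate 1 or 5), with 1 without THP -/- replicate 4 or WT replicate 4, 5 or 6, 3 without THP -/- replicate 2 or WT replicate 2 and 6 without WT replicate 1, against 2 with all arrays. The share of all genes called as higher was 4.72% without a batch term, 4.79% with the random block, 4.27% with probe-set means, 1.56% with the replicate block, 2.67% without THP -/- replicates 3 and 4, 2.38% without WT replicates 4 and 5, and 2.72% to 4.46% with single arrays left out, so 8 or 7 of 49 lie above that share while the 2 of 49 with all arrays are near it. The count was 3 with array weights or quantile normalization, where 3.92% and 3.32% of all genes were called as higher. No member passed an adjusted p of 0.05 under any of these settings. The assembly median was -0.083 without THP -/- replicates 3 and 4 and ranged from -0.016 to 0.17 over single arrays left out. The core, cap, immunoproteasome and regulator medians stayed above 0 under all settings run, and 31 of the 49 members had a difference of the same sign under all settings. Quantile normalization lowered these medians to 0.29 (core), 0.18 (cap), 0.16 (immunoproteasome) and 0.075 (regulators). With the deposited scaling they were 0.37, 0.27, 0.18 and 0.14. The median over the core and cap genes together was 0.20 with quantile normalization, against 0.29.

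The replicate block gave a core median of 0.25, a cap median of 0.12 and 41 members above 0, but same-numbered arrays did not deviate together (correlations from -0.18 to 0.01), so the numbers are not read as pairs. Under it Psma5 was 0.21, Psma8 0.027, Psmd7 -0.040, Psmd8 -0.087, Psmc1 -0.073, Psmd5 -0.087, Psmd9 -0.057 and Pomp -0.17. Quantile normalization turned Psma5 to 0.00086, Psme1 to -0.014, Psmg3 to -0.021 and Psmd9 to -0.021, the mean of all probe sets turned Psmg2 to -0.012, and batch 1 alone turned Psma5 to 0.17. Psmb3 was -0.014 with batch as a random block and -0.0083 without a batch term.

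Without THP -/- replicates 3 and 4, Psma2 was -0.14, Psma5 0.070, Psmd8 -0.081, Psmc1 -0.013, Psmd12 -0.029, Psmc6 -0.16, Psme4 -0.052, Psmg4 -0.016, Psmd10 -0.11, Psmd5 -0.14, Psmg3 -0.083, Psmg2 -0.11, Sem1 -0.051 and Pomp -0.18. Without WT replicates 4 and 5, Psmc6 was -0.032, Psme4 -0.041 and Psmd9 -0.022. With single arrays left out, the sign turned in some genes, whose differences spanned -0.051 to 0.37 for Psma2, -0.067 to 0.16 for Psmb3, -0.12 to 0.17 for Psma5, -0.098 to 0.29 for Psmc6, -0.040 to 0.31 for Psme4, -0.034 to 0.13 for Psme1, -0.016 to 0.36 for Psmd10, -0.020 to 0.28 for Psmd5, -0.025 to 0.12 for Psmg3, -0.060 to 0.20 for Psmg2, -0.041 to 0.13 for Psmd9, -0.33 to 0.017 for Psma8, -0.12 to 0.039 for Psmc3ip, -0.74 to 0.047 for Aqp3 and -0.057 to 0.65 for Pomp. The cause of these turns was not tested. Signals near the median probe set (Psma5, Psmb9 and Psma8) limit those genes.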
